A study of Homo sapiens with 9 samples.

Results

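The 10 genes described here encode secreted inflammatory cytokines and chemokines. They are the IL-6 family cytokines IL6 and LIF, the interleukin-1 genes IL1A and IL1B, the CXC chemokines CXCL8, CXCL1, CXCL2, CXCL3 and CXCL5, and the CC chemokine CCL20. They were taken by symbol from a table of 60612 genes, and each symbol matched 1 row. The list was selected on earlier results of these same libraries, that is, on the fold changes between siRNA1, siRNA2 and control libraries. The members' values are therefore given as a description, with fold changes but no test of single members, and nothing is inferred from how many of them differ.

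The study depleted MILIP, a long noncoding RNA listed as MAFG-DT, from MDA-MB-231, an established human breast cancer line of the triple-negative type. RNA was collected 48 hours after Lipofectamine 3000 transfection of MILIP siRNA1, MILIP siRNA2 or a control siRNA, with 3 libraries per group and 9 in all, and no other genetic change or treatment is named. All groups are 1 cell line, carry the same transfection reagent and share the control libraries. Whether a group's 3 libraries stem from separate cultures is not stated in the labels, and their protocol text names siRNAs to PLANE where the title and treatment labels name MILIP.

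Inflammatory cytokines of this kind are made by many cell types after sensing of damage, microbial products or interleukin-1. Signals from interleukin-1 and tumour necrosis factor receptors free NF-kappa-B, which binds kappa-B sites in the promoters of these genes together with AP-1 and C/EBP proteins, and the messages are short-lived because of AU-rich elements in their 3 prime untranslated regions (UTRs). IL6 and LIF signal through the shared receptor chain gp130 (IL6ST) and STAT3, IL1A and IL1B through IL1R1 and IL1RAP, CXCL8 and the other CXC members through CXCR2 on neutrophils, and CCL20 through CCR6. Basal-like breast cancer lines are known to secrete several of them without outside stimulation.

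The promoter stretches are shown because 7 of the 9 members in the RefSeq promoter table share a kappa-B-like match close to the start of transcription. LIF was not matched in that table. Each stretch runs from 120 to 21 bases before the RefSeq transcript start on the gene's strand (GRCh38.p14), and capitals mark matches to GGNNTTTCC on either strand.
IL6 (chr7:22727080-22727179, plus strand): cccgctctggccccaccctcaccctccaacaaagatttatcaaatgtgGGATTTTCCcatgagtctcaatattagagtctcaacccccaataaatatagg
CXCL8 (chr4:73740449-73740548, plus strand): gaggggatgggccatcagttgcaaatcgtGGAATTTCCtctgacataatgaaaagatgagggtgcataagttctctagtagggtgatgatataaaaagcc
CXCL1 (chr4:73869273-73869372, plus strand): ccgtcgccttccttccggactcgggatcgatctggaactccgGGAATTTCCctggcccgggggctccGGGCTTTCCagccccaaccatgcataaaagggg
CXCL2 (chr4:74099216-74099315, minus strand): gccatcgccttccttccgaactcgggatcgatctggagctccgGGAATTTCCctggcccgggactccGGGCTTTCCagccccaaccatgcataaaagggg
CXCL3 (chr4:74038710-74038809, minus strand): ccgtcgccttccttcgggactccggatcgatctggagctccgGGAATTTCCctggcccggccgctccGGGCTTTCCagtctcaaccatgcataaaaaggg
CXCL5 (chr4:73998698-73998797, minus strand): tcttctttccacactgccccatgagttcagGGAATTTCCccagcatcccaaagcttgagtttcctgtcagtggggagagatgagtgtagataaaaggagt
CCL20 (chr2:227813722-227813821, plus strand): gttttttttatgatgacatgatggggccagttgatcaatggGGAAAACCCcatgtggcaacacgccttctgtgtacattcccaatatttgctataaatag

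The match began 72 bases before the start in IL6, 91 in CXCL8, 90 in CXCL5 and 79 in CCL20, where it lies on the other strand. CXCL1, CXCL2 and CXCL3 each held 2 matches, the first 77 or 78 and the second 53 bases before the start. Of all 35116 promoter windows of 300 bases in the table, 6.26% held a match. The letters were written to cover known kappa-B sites, some of them sites of these same genes, so the count is a description. The windows of IL1A, which has 2 listed starts, and of IL1B held no match. TGANTCA, the AP-1 motif, was found in IL1A and CXCL8 and in 7.71% of all windows.

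**Figure D1:**
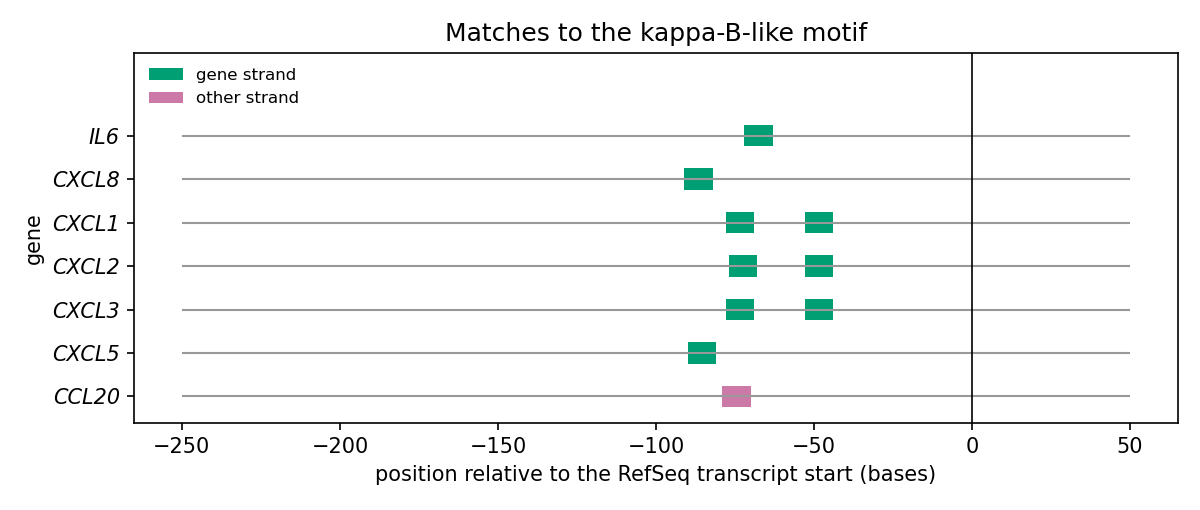
Matches to the kappa-B-like motif GGNNTTTCC (blocks) along the RefSeq promoter windows (grey lines), with the transcript start at 0 and position in bases on the x axis. In the 7 genes shown every match starts between 91 and 53 bases before the start, and that of CCL20 is on the other strand.

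The 3 prime UTRs of the members were rich in ATTTA, the core of the AU-rich elements through which ZFP36 family proteins bring about mRNA decay. In the longest annotated 3 prime UTR of each gene (GENCODE release 29, gene strand only), the members had a median of 7.13 ATTTA per kilobase, against 1.66 in the 12591 tested genes with such a UTR. IL6 had the highest density, 14 per kilobase (6 in 429 bases), followed by CXCL2 with 13.9 per kilobase (10 in 721 bases). LIF had the lowest, 2.18 per kilobase (7 in 3204 bases). The longer element TTATTTATT, which contains ATTTA, was present in 6 of 10 members (LIF, IL1B, CXCL8, CXCL1, CXCL2 and CXCL3). It was present in 9.45% of all tested genes with a UTR, and in 7.52% of those 7822 whose UTR was as long as that of a member (429 to 3204 bases). The densest stretches of 3 members are shown with each ATTTA in capitals, because these are the members whose densest 30 bases hold 2 or more copies of the longer element.
CXCL2 3 prime UTR bases 139 to 168: gtcttctATTTATTTATTTATTTATTTAtt
CXCL1 3 prime UTR bases 131 to 160: taggagaagtcttctATTTATTTATTTAtt
IL1B 3 prime UTR bases 331 to 360: agcaaccgcttccctATTTATTTATTTAtt

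The targeted transcript was lower with both siRNAs. MILIP was at 1.24 ± 0.641 CPM with siRNA1 and 0.615 ± 0.315 CPM with siRNA2, against 8.4 ± 0.254 CPM in control libraries (SD, n = 3 each), where CPM is counts per 1e+06 after TMM scaling. These levels are 14.8% and 7.32% of the control level. The log2 fold changes were -2.74 and -3.73 (Benjamini-Hochberg adjusted p = 2.51e-09 and 5.34e-11 over 15345 genes, edgeR quasi-likelihood). An exact two-sided permutation test gave p = 0.1 for each, the smallest that 3 against 3 libraries allow. Library totals were 15281220 to 19759371 counts, and 3 counts, the limit that a count of 0 allows, correspond to 0.152 to 0.198 CPM, a limit for counting error only. The 4 markers of the line were all detected. With siRNA1 3 of them, CD44, AXL and CAV1, were called lower (all genes 25.3%), and VIM was not called. With siRNA2 VIM, AXL and CAV1 were called lower (all genes 28.9%) and CD44 higher (27.2%). AXL was at 103 CPM with siRNA1 and 273 CPM with siRNA2, against 1003 CPM in control libraries, and CAV1 at 109 and 280 CPM, against 328 CPM. CD44 was at 655 and 931 CPM, against 829 CPM, and VIM at 4613 and 4068 CPM, against 4774 CPM. Of the receptors that are low in triple-negative lines, ESR1 and PGR had at most 17 and 1 counts in a library, and ERBB2 was at 54.8 CPM with siRNA1 and 72 CPM with siRNA2, against 61.3 CPM in control libraries.

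With siRNA2, 9 of the 10 genes were higher than in control libraries by 2.62-fold to 29.6-fold, and LIF was slightly lower. With siRNA1 the 10 genes did not move as a block. IL1A, CXCL8 and CXCL1 were modestly higher and CXCL3, IL1B and CXCL2 lower, while IL6 and LIF differed little and CXCL5 and CCL20 had few counts. The 10 transcripts together took 0.434% ± 0.0403 of all counts with siRNA2 and 0.157% ± 0.00252 with siRNA1, against 0.151% ± 0.00569 in control libraries (SD, n = 3 each). A change in the number of producing cells and a change in RNA per cell cannot be told apart in such bulk RNA.

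**Figure D2:**
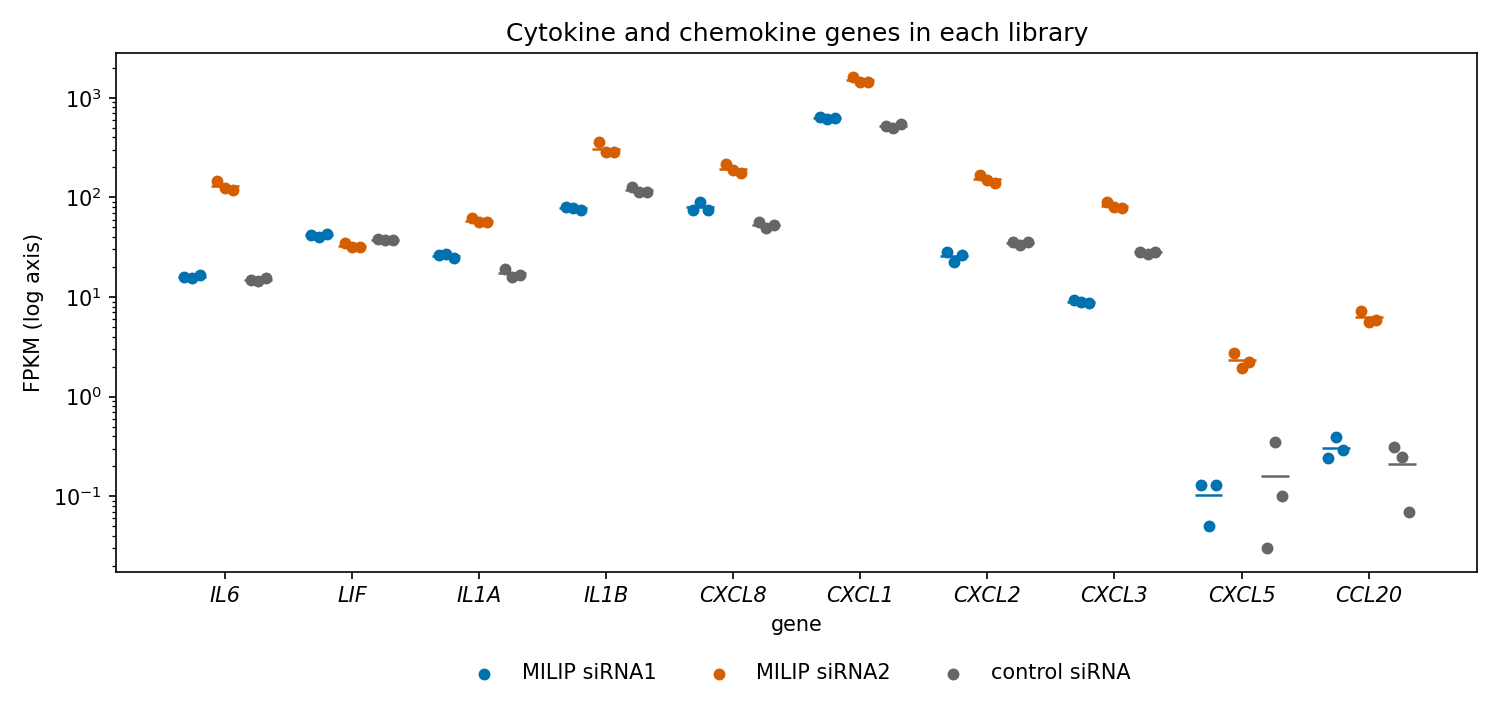
FPKM of each gene (log axis) in the 9 libraries, with points for libraries and bars for group means, for siRNA1, siRNA2 and control siRNA from left to right. All 3 siRNA2 libraries lie above all 6 others for 9 genes, and below them for LIF.

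IL6, the cytokine of acute-phase and STAT3 signalling, was far higher with siRNA2 and close to its control level with siRNA1. It had 15.72, 15.64 and 16.53 FPKM with siRNA1 and 144.67, 123.55 and 118.32 FPKM with siRNA2, against 14.94, 14.45 and 15.56 FPKM in control libraries. FPKM are the authors' counts divided by exonic gene length and library total. The siRNA2 libraries stood far above all others, while the siRNA1 and control libraries lay next to each other and overlapped in TMM-scaled CPM (31.74 to 33.83 with siRNA1, 30.14 to 32.57 in control libraries). The log2 fold change was 3.10 (SE 0.08) with siRNA2, an 8.6-fold higher level, and 0.064 (SE 0.084) with siRNA1. STEAP1B and IL6-AS1 overlap IL6 on the opposite strand, with at most 36 and 14 counts in any library, against 457 or more for IL6.

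LIF, which acts through LIFR and gp130, was the exception with siRNA2. Its level was 41.92, 40.43 and 42.46 FPKM with siRNA1 and 34.62, 32.03 and 31.51 FPKM with siRNA2, against 38.23, 37.61 and 37.29 FPKM in control libraries. The 3 groups did not overlap, with siRNA1 highest and siRNA2 lowest, but the log2 fold changes were small, 0.12 (SE 0.059) with siRNA1 and -0.21 (SE 0.06) with siRNA2. LIF-AS1 and AC004264.1 lie across LIF on the opposite strand, with at most 16 and 90 counts.

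The interleukin-1 genes IL1A and IL1B, both pro-inflammatory ligands of IL1R1, were higher with siRNA2 and moved apart with siRNA1. IL1A had 26.5, 26.73 and 24.37 FPKM with siRNA1 and 62.37, 56.43 and 56.39 FPKM with siRNA2, against 19.21, 15.96 and 16.74 FPKM in control libraries. IL1B had 80.88, 79.03 and 75.25 FPKM with siRNA1 and 358.02, 286.85 and 283.37 FPKM with siRNA2, against 128.16, 113.96 and 112.99 FPKM in control libraries. All siRNA1 libraries were thus above control for IL1A (log2 fold change 0.55, SE 0.079) and below it for IL1B (-0.62, SE 0.075). With siRNA2 the log2 fold changes were 1.75 (SE 0.078) and 1.39 (SE 0.075). The ratio of IL1B to IL1A in FPKM was 3.03 ± 0.0666 with siRNA1 and 5.28 ± 0.396 with siRNA2, against 6.85 ± 0.251 in control libraries (SD, n = 3 each). The genes are neighbours on chromosome 2 (IL1A at 112773925 to 112784493 and IL1B at 112829751 to 112836816, both on the minus strand, GRCh38), 45257 bases apart.

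CXCL8, the main human neutrophil attractant, and CXCL1 were the chemokines that were higher with both siRNAs. CXCL8 had 75.61, 89.87 and 74.85 FPKM with siRNA1 and 215.7, 186.75 and 177.84 FPKM with siRNA2, against 56.78, 49.54 and 52.51 FPKM in control libraries. CXCL1 had 639.91, 612.08 and 620.73 FPKM with siRNA1 and 1634.54, 1447.11 and 1438.59 FPKM with siRNA2, against 526.31, 499.83 and 550.6 FPKM in control libraries. Neither gene's groups overlapped, and the step was much larger with siRNA2. For CXCL8 the log2 fold change was 0.57 (SE 0.078) with siRNA1 and 1.87 (SE 0.078) with siRNA2. For CXCL1 it was 0.22 (SE 0.059) and 1.52 (SE 0.06).

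CXCL2 and CXCL3, close relatives of CXCL1 that also bind CXCR2, went opposite ways with the siRNAs. CXCL2 had 28.13, 22.45 and 26.42 FPKM with siRNA1 and 168.03, 148.32 and 140.88 FPKM with siRNA2, against 35.71, 33.38 and 35.97 FPKM in control libraries. CXCL3 had 9.29, 8.99 and 8.71 FPKM with siRNA1 and 90.3, 80.01 and 77.66 FPKM with siRNA2, against 28.34, 27.31 and 28.57 FPKM in control libraries. For both genes every siRNA1 library was below and every siRNA2 library above all control libraries. CXCL3 had the largest drop of the 10 genes with siRNA1 (log2 fold change -1.67, SE 0.079, a 3.18-fold lower level), against -0.48 (SE 0.087) for CXCL2. CXCL2 had a log2 fold change of 2.12 (SE 0.082) with siRNA2, and CXCL3 one of 1.56 (SE 0.07). Between the siRNAs, CXCL3 was 9.37-fold and CXCL2 6.05-fold higher with siRNA2.

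CXCL1, CXCL2 and CXCL3 are similar enough that reads could be shared or lost between them. Of the different 50-base words in the annotated CXCL2 transcripts, 8.99% also occur in CXCL3 and 3.88% in CXCL1, and of those of CXCL1 0.481% occur in CXCL3. The sources used here do not state how reads with several matches were counted.

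CXCL5, another CXCR2 ligand, and CCL20, which draws CCR6-bearing lymphocytes and dendritic cells, were barely detected outside the siRNA2 libraries. CCL20 had 6, 11 and 9 counts with siRNA1 and 222, 175 and 160 counts with siRNA2, against 8, 6 and 2 counts in control libraries. CXCL5 had 5, 2 and 6 counts with siRNA1 and 127, 93 and 94 counts with siRNA2, against 1, 13 and 4 counts in control libraries. The siRNA1 and control libraries overlapped for both genes, and every siRNA2 library was above them. The fitted log2 fold change with siRNA2 was 4.89 (SE 0.28) for CCL20 and 3.89 (SE 0.38) for CXCL5, sizes that rest on few control counts. With siRNA1 it was 0.55 (SE 0.48) for CCL20 and -0.59 (SE 0.66) for CXCL5, and the sign for CXCL5 turned without control library 2 (0.68). Both genes passed the filter on low counts through their siRNA2 libraries. Even with siRNA2 their level, 6.24 ± 0.924 and 2.3 ± 0.403 FPKM (SD, n = 3 each), was below that of every other member.

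**Figure D3:**
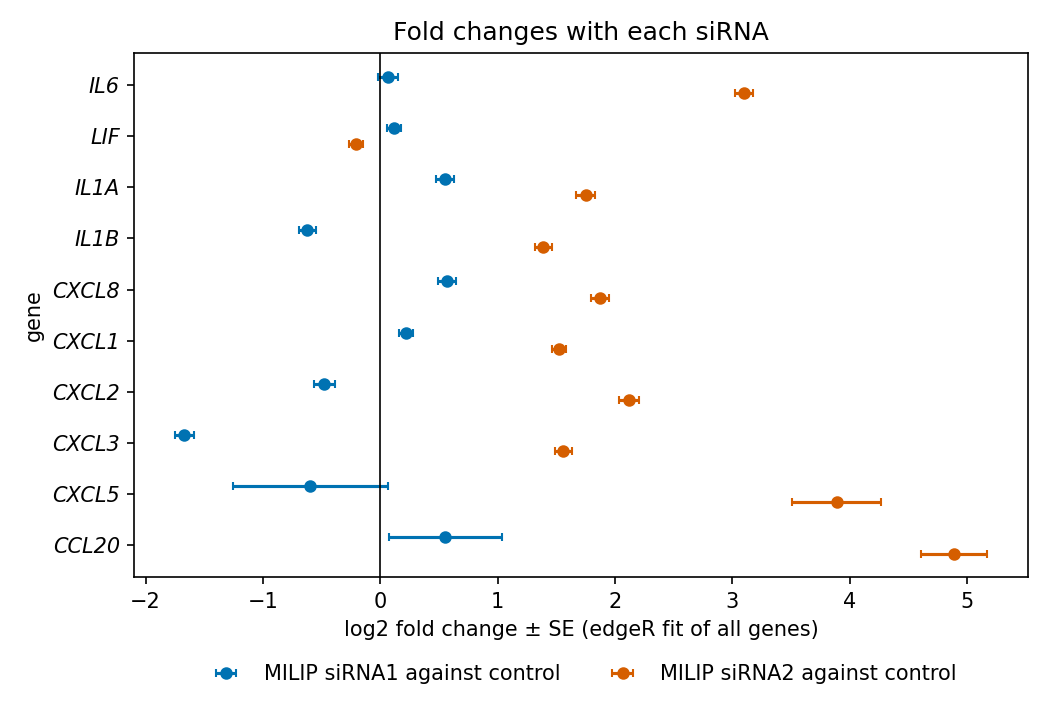
log2 fold change (x axis, points) with its standard error (bars) of each gene with siRNA1 (blue) and siRNA2 (orange) against the same control libraries, from the fit of all genes. The siRNA2 values run from -0.21 (LIF) to 4.89 (CCL20), and the siRNA1 values from -1.67 (CXCL3) to 0.57 (CXCL8).

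All 10 members passed the filter on low counts. With siRNA2 9 were called higher at an adjusted p below 0.05, where 27.2% of all 15345 tested genes were, and 1 was called lower (all genes 28.9%). The 9 were also at least 2-fold higher, as were 6.06% of all genes. With siRNA1 3 were called higher (all genes 25.1%) and 3 lower (25.3%). In siRNA2 against siRNA1 9 were called higher (28.4%) and 1 lower (32%), and the 9 were at least 2-fold higher (7.55%). All 3 siRNA2 libraries lay above all control libraries for 9 members (all genes 30.3%) and below them for 1 (31.5%), and all siRNA1 libraries lay above control for 4 (27.3%) and below it for 3 (26.5%). Against siRNA1, siRNA2 libraries lay above for 9 (31.1%) and below for 1 (34.4%). The members' median log2 fold change was 0.090 with siRNA1, 1.81 with siRNA2 and 2.3 in siRNA2 against siRNA1, against medians of 0.0032, -0.011 and -0.033 over all tested genes. The list was chosen with these comparisons known, so nothing is read from these counts.

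Per length, CXCL1 was the most abundant member in all 3 groups, and its share of the members' summed FPKM was 69.3% ± 0.839 with siRNA1, 61% ± 0.808 with siRNA2 and 63.3% ± 1.31 in control libraries (SD, n = 3 each). In control libraries it was followed by IL1B, CXCL8, LIF, CXCL2, CXCL3, IL1A and IL6, whose ranges did not overlap from one to the next, and then by CCL20 and CXCL5, which overlapped. With siRNA1 the order changed: CXCL8 and IL1B overlapped in the next places, IL1A and CXCL2 overlapped after LIF, and CXCL3 dropped below IL6. With siRNA2 the order after CXCL1 was IL1B, CXCL8, CXCL2, IL6, CXCL3, IL1A, LIF, CCL20 and CXCL5, and among these neighbours CXCL2 and IL6 alone overlapped. IL6 thus ranked 5 with siRNA2, against 8 in control libraries, and LIF ranked 8 with siRNA2, against 4 in control libraries.

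**Figure D4:**
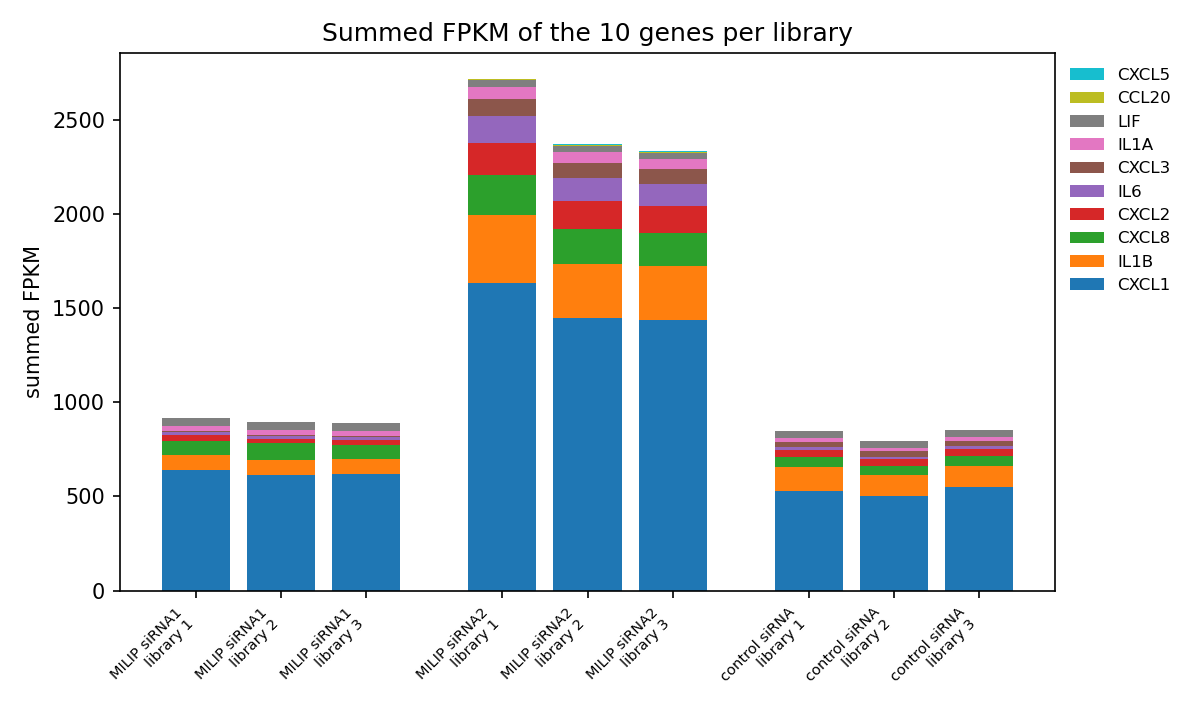
Summed FPKM of the 10 genes in each library (y axis), stacked by gene, with siRNA1, siRNA2 and control siRNA libraries from left to right. The siRNA2 libraries reach 2333 to 2718, the siRNA1 libraries 889.7 to 918.3 and the control libraries 792.6 to 850.4, and CXCL1 is the largest block in all 9.

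The 5 CXC members lie within 358.7 kilobases of chromosome 4 (73740541 to 74099196), which the table shares out among 18 genes. Of the 13 others, 11 had 0 counts in all 9 libraries, among them the platelet chemokine genes PF4 and PPBP. CXCL6, a further CXCR2 ligand inside this stretch, had at most 2 counts in a library, and AC097709.1, which overlaps CXCL5 on the opposite strand, at most 6. The chromosome 4 members did not respond alike to siRNA1, where CXCL8 and CXCL1 were higher and CXCL3 and CXCL2 lower.

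Markers of other cell types were checked, since leukocytes, fibroblasts and endothelium also make these cytokines. Of 10 leukocyte markers 4 were tested, CD3E and CD2 were at 0 in every library, and PTPRC had at most 1 count. The summed level of all 10 was 427 to 448 CPM with siRNA1 and 873 to 887 CPM with siRNA2, against 1050 to 1110 CPM in control libraries. Nearly all of it was LCP1 and LAPTM5, which went opposite ways. LCP1 was at 77.7 CPM with siRNA1 and 502 CPM with siRNA2, against 797 CPM in control libraries. LAPTM5 was at 352 and 356 CPM, against 277 CPM. Without these genes the summed level was 6.17 to 7.64 CPM with siRNA1 and 18.9 to 19.9 CPM with siRNA2, against 5.74 to 6.57 CPM. Its main part was CD14 (8.48 CPM with siRNA2, 2.11 CPM in control libraries) and CSF1R (10.7 and 3.92 CPM). The 5 fibroblast markers summed to 48.6 to 57.6 CPM with siRNA1 and 68.5 to 72 CPM with siRNA2, against 8.08 to 11.3 CPM. Most of it was COL1A1, at 45 CPM with siRNA1 and 61.2 CPM with siRNA2, against 8.24 CPM in control libraries. PDGFRB was at 7.55 and 6.83 CPM, against 1.23 CPM. COL1A2 was at 0.0592 and 2.06 CPM, against 0 CPM. DCN and LUM had at most 6 and 1 counts. The 5 endothelial markers summed to 15.3 to 17.3 CPM with siRNA1 and 30 to 31.7 CPM with siRNA2, against 22.5 to 23.9 CPM. The part of these markers in the members' differences was not tested.

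Genes around the members were followed in 8 lists of 121 genes, of which 97 had enough counts to be tested by edgeR's quasi-likelihood test. These lists were written from general knowledge of the pathway, with earlier results of these libraries known. With siRNA1 32 of the 97 were called higher and 33 lower (65 in all), and with siRNA2 48 were called higher and 21 lower (69 in all). Of all tested genes, 25.1% were called higher and 25.3% lower with siRNA1, and 27.2% and 28.9% with siRNA2. Of the 97 genes 70 differed between siRNA2 and siRNA1, 45 higher and 25 lower with siRNA2, where 28.4% and 32% of all tested genes were. The median log2 fold change with siRNA1 and siRNA2 was 1.07 and 0.91 for other chemokines, 0.52 and 0.63 for other cytokines, and -0.44 and -0.089 for receptors. It was -0.1 and -0.051 for receptor signalling, -0.0063 and 0.25 for NF-kappa-B genes and 0.21 and 0.45 for AP-1 and C/EBP genes. For mRNA decay and stability it was -0.14 and -0.15, and for interleukin-1 processing -0.078 and 0.53, beside the all-gene medians of 0.0032 and -0.011. These medians cover tested genes only. Of the chemokines tested, CXCL11, CXCL16 and CX3CL1 passed the filter on low counts through siRNA libraries. So did IL23A, IL36G and TNF among the other cytokines, and CEBPA among the AP-1 and C/EBP genes. This favours higher medians and rises, so the medians and counts of these lists are only descriptions.

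Among 16 other chemokines 12 were too low to be tested. The interferon-type chemokines CXCL9, CXCL10 and the leukocyte attractants CCL2 and CCL5 had at most 0, 13, 14 and 15 counts in a library. Of the 4 tested, 3 rose and 0 fell with siRNA1 (all genes 25.1% and 25.3%), and 1 rose and 1 fell with siRNA2 (27.2% and 28.9%). CXCL11, CXCL16 and CX3CL1 had at most 0.470, 0.264 and 0.555 CPM in a control library. They passed the filter on low counts through siRNA libraries, which favours rises, so nothing is read from these counts. CX3CL1, a membrane-tethered chemokine, rose to 8.65 ± 1.65 CPM with siRNA1 and was at 0.751 ± 0.0961 CPM with siRNA2, against 0.451 ± 0.114 CPM in control libraries (SD, n = 3 each). With siRNA1 this was a log2 fold change of 4.24 (SE 0.26, edgeR adjusted p = 1.02e-12). The siRNA2 value, 0.72 (SE 0.38), had an adjusted p of 0.114, and siRNA2 was below siRNA1 (-3.51, adjusted p = 1.54e-12), the reverse of the order seen for 9 members. CXCL16 rose with both siRNAs to 0.608 ± 0.363 and 0.778 ± 0.132 CPM, against 0.167 ± 0.101 CPM in control libraries (log2 fold change 1.79 and 2.18). Its control libraries were at 0.0617 to 0.264 CPM, around the limit that a count of 0 allows (0.152 to 0.198 CPM). These sizes thus rest on few control counts. The siRNA1 call for CXCL16 was lost without control library 1 (adjusted p = 0.0808) and without siRNA1 library 1 (adjusted p = 0.141). CCL28 rose with siRNA1 (0.35) and fell with siRNA2 (-0.47), and the siRNA1 call was lost without control library 2 (adjusted p = 0.08) and without siRNA1 library 3 (adjusted p = 0.0977).

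Of 21 other cytokines 16 were tested: 6 rose and 3 fell with siRNA1 (all genes 25.1% and 25.3%), and 11 rose and 1 fell with siRNA2 (27.2% and 28.9%). IL36G and IL23A had at most 0.792 and 0.923 CPM in a control library. Both passed the filter on low counts through siRNA libraries, which favours rises, so nothing is read from these counts. CSF1, the growth factor of macrophages, was at 654 ± 25.6 CPM with siRNA1 and 1344 ± 101 CPM with siRNA2, against 275 ± 12.2 CPM in control libraries (SD, n = 3 each). It rose with both (log2 fold change 1.25 and 2.29, SE 0.059 and 0.061). IL32, a pro-inflammatory cytokine, rose with both as well (1.73 and 2.44), as did IL23A, a subunit of interleukin-23 (1.33 and 2.78). The control libraries of IL23A were at 0.493 to 0.923 CPM, so its fold changes rest on few control counts. IL24, of the interleukin-10 family, rose with siRNA2 alone to 31.6 ± 3.29 CPM, against 4.45 ± 0.263 CPM in control libraries, and was at 4.68 ± 1.04 CPM with siRNA1, with a difference between the siRNAs of 2.77 (adjusted p = 4.13e-15). CSF3, the granulocyte growth factor, was chosen for naming after its values were seen. It fell to 222 CPM with siRNA1 (log2 fold change -1.86) and rose to 2993 CPM with siRNA2 (1.90), against 804 CPM in control libraries, as CXCL3 did in direction. Tumour necrosis factor (TNF) passed the test with neither siRNA and was at 1.14 CPM with siRNA1, 0.908 CPM with siRNA2 and 0.757 CPM in control libraries.

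Receptors for the chemokine members were not detected: CXCR1, CXCR2 and CCR6 had 0 counts in all 9 libraries. Of 12 receptors and receptor antagonists 6 were tested, with 1 rising and 3 falling with siRNA1 (all genes 25.1% and 25.3%) and 3 rising and 3 falling with siRNA2 (27.2% and 28.9%). IL1R1, the signalling interleukin-1 receptor, rose with siRNA2 to 7.84 ± 0.599 CPM, against 2.78 ± 0.441 CPM in control libraries (log2 fold change 1.50, adjusted p = 6.66e-08), and its partner IL1RAP rose with siRNA2 (0.41) and fell with siRNA1 (-1.29). IL6R, the ligand-binding chain for IL6, rose with siRNA1 to 11.8 ± 1.69 CPM and fell with siRNA2 to 2.74 ± 0.26 CPM, against 4.15 ± 0.615 CPM in control libraries (SD, n = 3 each), and the siRNA2 call was lost without control library 2 (adjusted p = 0.0511). LIFR fell with both (log2 fold change -0.49 and -1.60), though not with siRNA1 in limma on FPKM plus 0.1 (adjusted p = 0.0557). IL1RN, the antagonist of IL1R1, had at most 7 counts.

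Downstream of these receptors, 5 of 18 signalling genes rose and 8 fell with siRNA1 (all genes 25.1% and 25.3%), and 8 rose and 4 fell with siRNA2 (27.2% and 28.9%). STAT3, the transcription factor used by IL6 and LIF, was at 100 ± 3.09 CPM with siRNA1 and 293 ± 4.01 CPM with siRNA2, against 211 ± 13.4 CPM in control libraries (SD, n = 3 each), a fall with siRNA1 (log2 fold change -1.07) and a rise with siRNA2 (0.47). IRAK2, a kinase-like adaptor of the interleukin-1 receptor, likewise fell with siRNA1 (-0.63) and rose with siRNA2 (1.30). SOCS1, an inhibitor of JAK kinases, rose with both (1.50 and 1.76). JAK2 fell with both (-0.71 and -0.60), a siRNA2 call that was lost without control library 2 (adjusted p = 0.0542).

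In the NF-kappa-B list of 16 genes 6 rose and 6 fell with siRNA1 (all genes 25.1% and 25.3%), and 11 rose and 3 fell with siRNA2 (27.2% and 28.9%). NFKBIA, the inhibitor that NF-kappa-B itself induces, was at 148 ± 3.96 CPM with siRNA1 and rose to 253 ± 5.65 CPM with siRNA2, against 134 ± 7.28 CPM in control libraries (SD, n = 3 each). Its siRNA1 value (log2 fold change 0.14, adjusted p = 0.044) lost its call without any 1 library other than control library 3 and siRNA1 library 2 (adjusted p = 0.0536 to 0.206). NFKB2 rose with both siRNAs (0.57 and 0.95) and NFKB1 fell with both (-1.04 and -0.68). CHUK, the kinase IKK alpha, fell with siRNA1 to 20.5 ± 0.899 CPM and was at 59.9 ± 2.03 CPM with siRNA2, against 57.9 ± 2.28 CPM (difference between the siRNAs 1.55, adjusted p = 6.81e-15). Of 12 AP-1 and C/EBP genes 7 rose and 3 fell with siRNA1 (all genes 25.1% and 25.3%), and 5 rose and 2 fell with siRNA2 (27.2% and 28.9%). CEBPA, with at most 0.857 CPM in a control library, passed the filter on low counts through siRNA libraries, which favours rises. CEBPD rose with both (0.93 and 1.10), FOSL1 fell with both (-0.61 and -0.94), and CEBPA rose with siRNA1 (1.98) and had 0.92 (adjusted p = 0.0685) with siRNA2, which passed without siRNA2 library 1 (adjusted p = 0.0297). FOSB averaged 0.456 CPM with siRNA1 and 0.739 CPM with siRNA2, against 0.975 CPM in control libraries. Its siRNA1 call (-1.09) was lost without control library 2 or 3 and without each siRNA1 library (adjusted p = 0.057 to 0.13), and in DESeq2 (adjusted p = 0.072).

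Among 15 genes of cytokine mRNA decay and stability 2 rose and 7 fell with siRNA1 (all genes 25.1% and 25.3%), and 3 rose and 4 fell with siRNA2 (27.2% and 28.9%). ZC3H12A, the endonuclease Regnase-1 that cleaves IL6 mRNA, was at 126 ± 6.02 CPM with siRNA1 and 411 ± 15.6 CPM with siRNA2, against 149 ± 7.34 CPM in control libraries (SD, n = 3 each). Its log2 fold change was a small fall with siRNA1 (-0.25, adjusted p = 0.00115) and a rise with siRNA2 (1.46, adjusted p = 4.31e-16), a difference of 1.71 between the siRNAs (adjusted p = 9.64e-18). KHSRP, a decay factor that binds AU-rich elements, fell with both (-0.20 and -1.01). ZFP36L1 fell with siRNA1 (-0.67) and rose with siRNA2 (0.37), and ZFP36L2 fell with siRNA1 (-1.43) and had -0.15 with siRNA2, a value that passed without control library 3 (-0.26, adjusted p = 0.0224) and was 0.023 without control library 2. Both encode relatives of ZFP36.

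In the list for interleukin-1 processing and the inflammasome, 2 of 10 tested genes rose and 3 fell with siRNA1 (all genes 25.1% and 25.3%), and 6 rose and 3 fell with siRNA2 (27.2% and 28.9%). CASP1, the protease that matures the IL1B protein, rose to 8.9 ± 1.01 CPM with siRNA2 and was at 2.75 ± 0.632 CPM with siRNA1, against 2.66 ± 0.457 CPM in control libraries (SD, n = 3 each). PYCARD, the inflammasome adaptor, rose with siRNA2 (log2 fold change 0.70). NLRP3, an inflammasome sensor, fell with siRNA1 to 3.35 ± 0.143 CPM and was at 15.4 ± 1.28 CPM with siRNA2, against 13.6 ± 0.555 CPM in control libraries, and NLRP1 fell with siRNA1 (-0.77) and rose with siRNA2 (0.66).

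**Figure D5:**
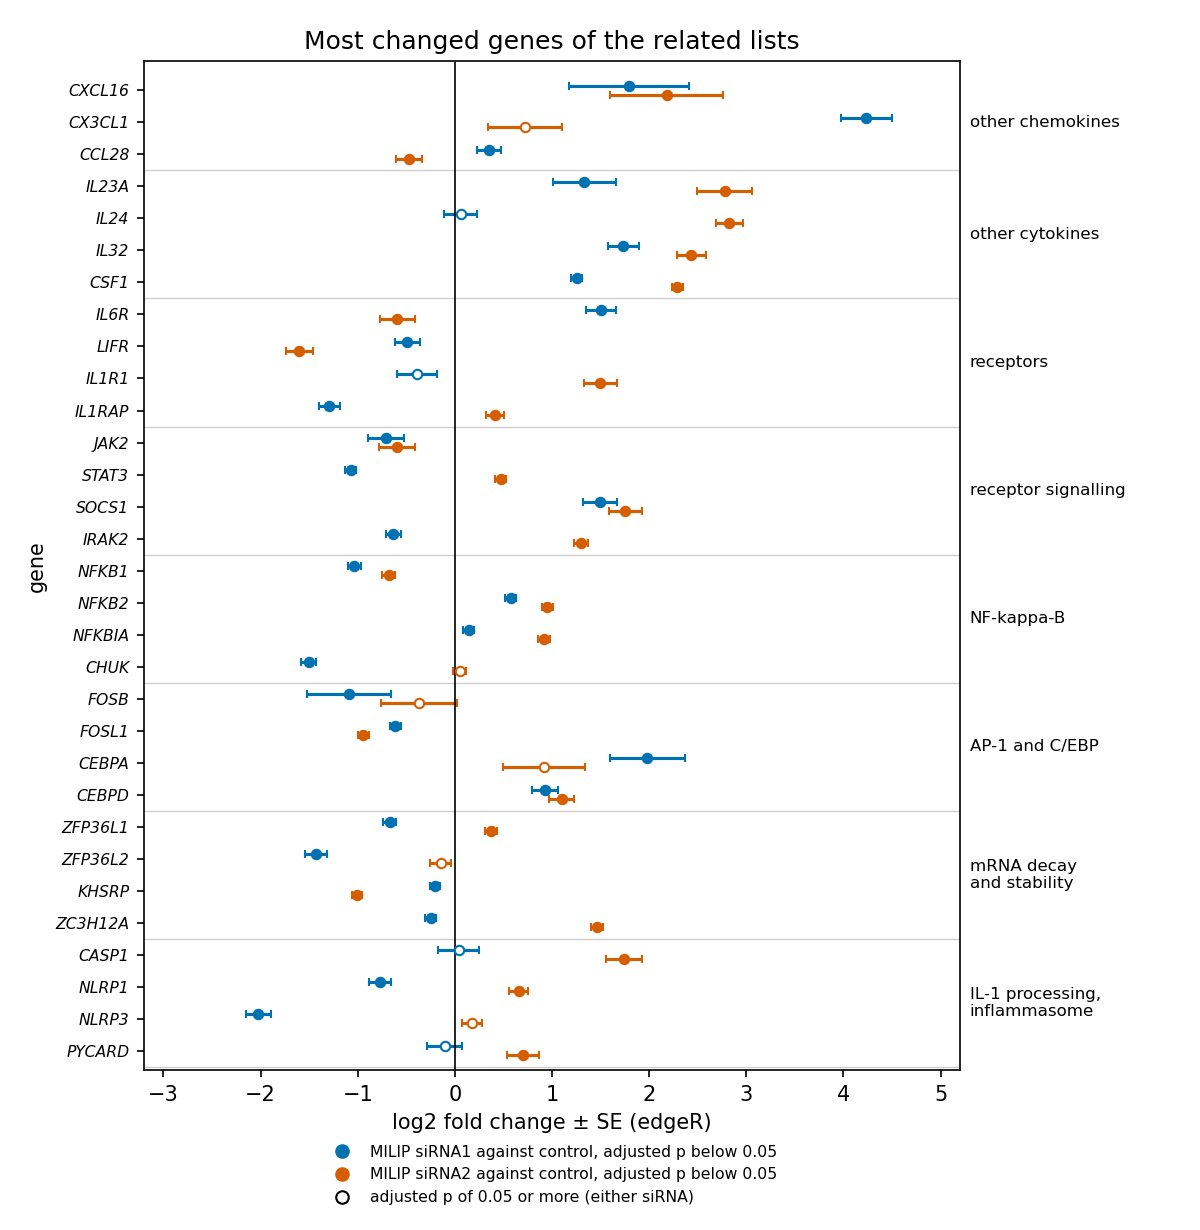
log2 fold change (x axis) with its standard error of up to 4 of the most changed genes of each of the 8 lists, with siRNA1 (blue) and siRNA2 (orange) against the same control libraries. Filled points passed an adjusted p of 0.05 and open points did not. Among genes with both points filled, STAT3, IRAK2, IL1RAP, ZFP36L1, ZC3H12A and NLRP1 lie left of 0 with siRNA1 and right of it with siRNA2. IL6R and CCL28 lie the other way round.

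Genes with profiles most like each member over the 9 libraries were found by the root mean square difference of log2 CPM, centred per gene. The search covered 12749 genes of at least 1 CPM on average. It left out the other members and genes with clone, accession or LINC names, so closer genes among those are not shown. Since they were picked for this likeness, their fold changes are descriptions. Nearest to IL6 were TNFRSF1B, a tumour necrosis factor receptor (0.223), and IL24 (0.255), and TNFRSF1B (0.377) and PTGS2, the inducible cyclooxygenase (0.44), were nearest to CCL20. IL24 (0.378) and INSIG1 (0.412) were nearest to CXCL5. Nearest to IL1B were the collagenase MMP1 (0.0838) and IRAK2 (0.104), to IL1A TLR6 and SLC16A6 (0.102 each), and to CXCL8 DNAJB9 (0.103) and SLC16A6 (0.105). APOL1 (0.0934) and ZNF114 (0.0998) were nearest to CXCL1, SLC46A3 (0.111) and FAM102A (0.123) to CXCL2, and STC1 (0.183) and FNIP2 (0.203) to CXCL3. The median difference over all genes searched was 0.718 to 1.71 for these members. LIF, whose own changes were small, was nearest to ARL16 (0.0355) and UBAC1 (0.0479), against a median of 0.288. TNFRSF1B had log2 fold changes of 0.45 with siRNA1 and 3.13 with siRNA2, and PTGS2 of -0.79 and 3.31.

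The 3 prime UTRs of the members were also searched for 7-base words that an earlier pass over these libraries had linked to lower transcripts with each siRNA, on the same fold changes. AATTCCA, linked to siRNA1, occurs in 1 of 10 members, IL1A, and in 16.9% of tested genes with a UTR. GACCCTA, linked to siRNA2, occurs in 0 of 10 members and in 5.35% of those genes. The other members hold neither word in the UTRs searched. Only the longest annotated UTR of each gene was searched, and the siRNA sequences were not used here. Whether the siRNAs act on any member's transcript directly was not tested.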

How the data were processed

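The authors deposited 1 table with whole-number counts and FPKM per gene and library. Trimmomatic 0.30, HISAT2 2.0.1, HTSeq 0.6.1, DESeq and the build hg19 are named, with no role or order, per the submitters' processing notes. The table's coordinates are those of GRCh38, since 99.9% of 58394 identifiers overlap the same gene in GENCODE 29. The authors' deposited FPKM equal the count over exonic length and library total in 100% of values (within 0.005). Settings for strand and multiple matches: not given in the sources used here. Whether reads of genes that overlap on opposite strands were kept apart is therefore not known.

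Counts were filtered by filterByExpr (minimum count 10, total 15), which left 15345 of 60612 genes, and scaled by TMM. A single quasi-likelihood fit over the 3 groups in edgeR 4.0.16 (under R 4.3.3) gave two-sided p-values, adjusted by Benjamini-Hochberg over all tested genes, and 0.05 was the limit for a call. Standard errors are the log2 fold change over the root of the F statistic. The groups share control libraries, and p-values measure the spread between libraries, which may be technical. Genes named are the members, MILIP, up to 4 of the most changed called genes of each list and the 2 genes of nearest profile per member. CSF3, TNF, untested list genes and marker genes were named after their values were seen. Members and lists were chosen with earlier results of these data known. The fit was repeated with DESeq2 1.42.0, with its size factors, unfiltered, with at least 1 CPM, in limma 3.58.1 on log2 of the deposited FPKM plus 1 or 0.1, the 2 groups alone, a replicate block and each library left out. Sequences came from RefSeq (GRCh38.p14) and GENCODE 29 and were searched with Python 3.11.15.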

Additional observations from a re-analysis of the deposited data

How the results depend on the processing

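The numbers of genes called over all genes, in the 8 lists and among the 10 members stayed within 1.5 times the reported ones under every alternative run, in each of the 3 comparisons. With each library left out in turn, 6 members were called with siRNA1, 10 with siRNA2 and 10 in siRNA2 against siRNA1. In limma on FPKM plus 1 or plus 0.1, 7 members were called with siRNA1, with LIF (0.138 and 0.141) added to the 6. Over all genes the count without 1 library was 6842 to 7616 with siRNA1 and 7831 to 8877 with siRNA2. Replicate numbers are shared by the groups but same-numbered libraries did not deviate together (correlations of -0.0936 to 0.129 across genes, not all above 0.1), and with a replicate block 7750 genes were called with siRNA1 and 8604 with siRNA2, against 7738 and 8606 without it.

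MILIP had a lower mean with siRNA2 than siRNA1 (-0.99 on the log2 scale, edgeR adjusted p = 0.0264), but the libraries overlapped and an exact permutation test gave p = 0.2, and the call was lost in limma on FPKM plus 1 (-0.31) or plus 0.1 (-0.82), with those groups alone (-0.97), and without siRNA1 library 3, siRNA2 library 1 or siRNA2 library 3 (without 1 library, values from -1.48 to -0.51), and the cause was not tested. Signs turned, for values that had not passed, for CXCL5 with siRNA1 without control library 2 (0.68, lowest -1.09 without control library 1), CASP1 with siRNA1 without control library 1 (-0.092) or siRNA1 library 2 (-0.14, highest 0.21), PYCARD with siRNA1 without control library 3 (0.042) or siRNA1 library 2 (0.13, lowest -0.27), IL24 with siRNA1 without siRNA1 library 1 (-0.076, highest 0.24) and ZFP36L2 with siRNA2 without control library 2 (0.023, lowest -0.26 without control library 3, which passed). Depth limits CXCL5 and CCL20, at 1 to 13 counts outside the siRNA2 libraries.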
